A study of Astyanax mexicanus with 12 samples.

Results

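Molino cavefish and surface fish of *Astyanax mexicanus* were compared by the miRNAs of their embryos at 24 hours post fertilization (hpf). The comparison used the 3 Molino and the 3 surface libraries, 6 of the 12 libraries sequenced, and all 683 mature miRNAs listed for the species. None was left out here by its values. The authors' list itself was called from the reads of all 12 libraries combined, with a minimum number of mature reads among its filters. Surface fish live in rivers, and Molino is a cave morph named after its cave. The 3 libraries each of the Pachón and Tinaja cave morphs were used to look up whether a change in Molino was also found there. All groups were WT embryos of the same age, without treatment, so that morph was the only labelled difference between them. RNA came from whole embryos collected together for each morph, and the labels do not say whether the 3 libraries of a morph came from separate collections. The p-values below therefore measure the spread between these libraries, which may be technical.

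miRNAs are short RNAs that guide Argonaute proteins to partly complementary sites, mostly near the ends of mRNAs, and lower the stability and translation of those mRNAs. In fish embryos they are known for clearing maternal mRNAs and for shaping muscle, nerve, and blood development. Around the stage sampled here, the eye primordium of cavefish begins to regress, which is why the study chose it. The miRNAs carry numbers given by the authors (astmex-miR-1 and so on, written miR-1 here), which do not correspond to numbers of miRNA families in other species. Sequences and genome positions were not analysed here, so no miRNA below is given a family, a tissue, or a target, and the embryos were not checked against marker miRNAs. The miRNAs are instead grouped by abundance and by what the other morphs showed. In whole embryos, fewer cells that make a miRNA and less of it per cell cannot be told apart.

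The counts summed to between 7683993 and 8275406 in the Molino libraries and between 5539157 and 8537696 in the surface libraries. Over 503 miRNAs whose mean count reached 10, log levels of libraries of the same morph correlated at 0.994 to 0.996, and those of Molino with surface libraries at 0.928 to 0.932; these correlations are across miRNAs of libraries, and miRNAs are not independent replicates. Replicates differed by more than sampling noise in every pair, and each was counted as a library of its own. That spread may be technical and does not show that the libraries came from separate collections. More than 3 counts were found for 581 to 583 miRNAs in the Molino libraries and for 529 to 557 in the surface libraries. With all libraries thinned to the depth of the shallowest one, these numbers were 545 to 552 and 507 to 529.

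Molino embryos differed from surface embryos by at least 2-fold at many miRNAs of low and middle abundance. With TMM scaling, few of the most abundant ones met that 2-fold rule. Of 683 miRNAs tested, 238 (34.8%) were called, that is, had an adjusted p under 0.05 in the quasi-likelihood test of edgeR (Benjamini-Hochberg adjustment) and a fitted fold change of at least 2. Of these, 161 (23.6%) were higher and 77 (11.3%) were lower in Molino. The adjusted p alone was passed by 378 miRNAs (55.3%), 225 of them higher and 153 lower. Among the 132 miRNAs averaging 1000 counts or more, 85 (64.4%) passed it. At 246 miRNAs (36%) every Molino library was above every surface library, and at 182 (26.6%) every one was below. Among the 238 called miRNAs, the libraries of both morphs did not overlap at 231 and overlapped at 7.

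**Figure D1:**
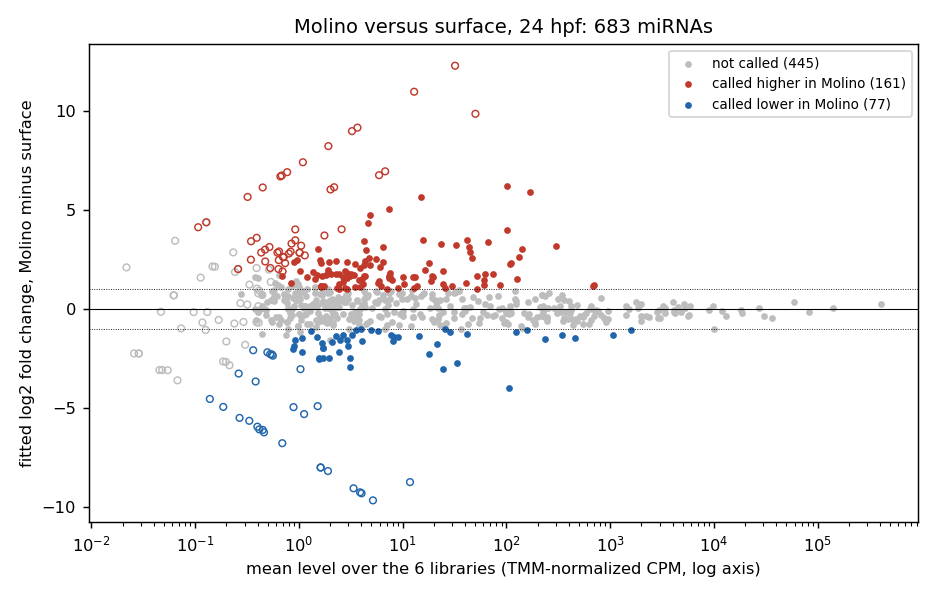
Each point is a miRNA (of the 683, 7 at 0 in all 6 libraries are not drawn), with its mean level over the 6 libraries in CPM (counts scaled by library size) on a log axis and its fitted log2 fold change, Molino minus surface, on the other axis; red and blue points were called higher (161) and lower (77), open points had at most 3 counts in each library of at least 1 of the morphs, and dotted lines mark a 2-fold change. The called miRNAs lie mostly at low and middle levels, and the fitted values of open points depend on the fit and are not fold changes to be read.

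The excess of higher over lower calls depended on how the libraries were scaled. The usual scaling (TMM) put 67.6% of the calls on the higher side, and library size, RLE factors, and DESeq2 put 63.0% to 64.8% there. Loess offsets, which let the scaling vary with abundance and were added after the data had been seen, gave 119 higher and 101 lower calls, or 54.1% higher. These offsets take out any trend of a library with abundance, so a more even split was partly set by the method. Upper-quartile scaling reversed the excess, with 109 higher and 147 lower calls, or 42.6% higher. The median log2 fold change over all miRNAs was 0.18 with TMM, 0.03 with loess offsets, and −0.33 with upper-quartile scaling. Under all of these scalings 107 miRNAs were called higher and 73 were called lower, and no called miRNA was called in the opposite direction in any setting run.

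**Figure D2:**
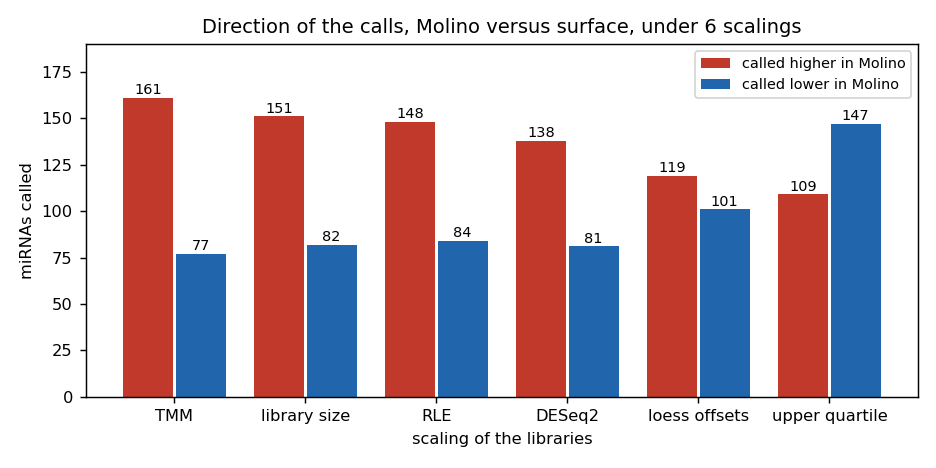
Bars give the number of miRNAs called higher (red) and lower (blue) in Molino than in surface embryos under 6 scalings of the libraries. Higher calls outnumber lower calls under TMM (161 and 77), library size, RLE, DESeq2, and loess offsets (119 and 101), and lower calls outnumber higher calls under upper-quartile scaling (109 and 147).

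The called miRNAs made up little of the miRNA pool. Those called higher took 0.601% to 0.694% of all counts in the Molino libraries and 0.149% to 0.207% in the surface libraries. Those called lower took 0.238% to 0.262% in Molino and 0.620% to 0.674% in surface. The 10 most abundant miRNAs were the same in both morphs, as were 47 of the 50 most abundant, and 2 of the top 50 and 8 of the top 100 were called.

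None of the 10 most abundant miRNAs was called with TMM scaling. The leading one, miR-1, took 45.4%, 39.7%, and 43.9% of the counts in the Molino libraries and 39.4%, 39.3%, and 34.1% in the surface libraries. Its shares did not overlap between the morphs, with the lowest Molino library just above the highest surface library. Its log2 fold change was 0.24 (SE 0.07, adjusted p = 0.00779), short of the 2-fold rule. miR-5 took 3.28%, 2.99%, and 2.68% of the counts in Molino and 4.22%, 4.42%, and 4.04% in surface. All 3 Molino libraries were below all 3 surface libraries, at a log2 fold change of −0.45 (adjusted p = 3.6e-05). With upper-quartile scaling it was at −1.002 (adjusted p = 1.69e-08) and was called, just past the 2-fold rule. miR-4, miR-7, miR-8, and miR-9 also passed the adjusted p alone, with log2 fold changes of 0.34, −0.34, −0.19, and −0.36. miR-2, miR-3, miR-6, and miR-10 did not, at 0.03, −0.16, 0.06, and −0.04. Of these 10 miRNAs, 7 changed the sign of their difference under at least 1 other setting, among them miR-1 and miR-4, which were at −0.31 and −0.21 with upper-quartile scaling. By the quasi-likelihood test some reversed values passed the adjusted p. With upper-quartile scaling these were miR-1 (adjusted p = 0.014), miR-2 (−0.52, adjusted p = 0.00626), and miR-6 (−0.49, adjusted p = 6.93e-05). With loess offsets it was miR-10 (0.21, adjusted p = 0.00303). The other reversed values did not pass it.

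The share of miRNAs called and the direction of the shift varied with abundance. Classes were made from the mean count over all 12 libraries. Under 10 counts, 66 of 180 miRNAs were called, 47 higher and 19 lower, with a median log2 fold change of 0.63 over the class. From 10 to under 100 counts, 113 of 256 were called, 77 higher and 36 lower, with a median of 0.45. From 100 to under 1000 counts, 45 of 115 were called, 30 higher and 15 lower, with a median of 0.15. At 1000 counts and over, 14 of 132 were called, 7 higher and 7 lower, with a median of −0.16. Upper-quartile scaling gave 31 higher and 27 lower calls in the scarcest class, then 51 and 62, 23 and 28, and 4 and 30 in the most abundant one. Loess offsets, which take out a trend with abundance by design, gave 29 and 27, 57 and 48, 26 and 20, and 7 and 6. Without Molino replicate 1, 12 miRNAs of the scarcest class were called lower in place of 19. With TMM the percentages called were 36.7%, 44.1%, 39.1%, and 10.6%, beside 34.8% over all miRNAs. The adjusted p alone was passed by 66, 138, 89, and 85 miRNAs of these classes, or 36.7%, 53.9%, 77.4%, and 64.4%. The median SE of the log2 fold change was 0.70 in the scarcest class and 0.076 in the most abundant one. In the most abundant class, the 2-fold rule was thus met by 14 of the 85 that passed it.

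With TMM scaling, the shift toward higher levels of scarce miRNAs was visible in each Molino library. These medians were not computed with upper-quartile factors or loess offsets. The median level of miRNAs under 10 counts was 0.631 to 0.784 CPM in the 3 Molino libraries and 0.349 to 0.511 CPM in the other 9 libraries. In a surface library 3 counts stood for 0.351 to 0.515 CPM, so the medians of this class were near the counting floor. Between 10 and 100 counts the median was 2.77 to 3.07 CPM in Molino and 1.87 to 2.43 CPM in the other 9. In both classes every Molino library was above every library of the other morphs. At 1000 counts and over, the Molino libraries had medians of 454 to 483 CPM and the surface libraries 576 to 594 CPM, again without overlap, but the Pachón libraries, at 483 to 520 CPM, were close to Molino. With all libraries thinned to the same depth, the median log2 fold changes of the classes, from scarce to abundant, were 0.52, 0.34, 0.05, and −0.20. In Pachón against the same surface libraries the class medians were 0.01, 0.14, 0.08, and −0.04, and in Tinaja −0.25, 0.01, 0.09, and 0.02. The differences between classes were not tested.

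**Figure D3:**
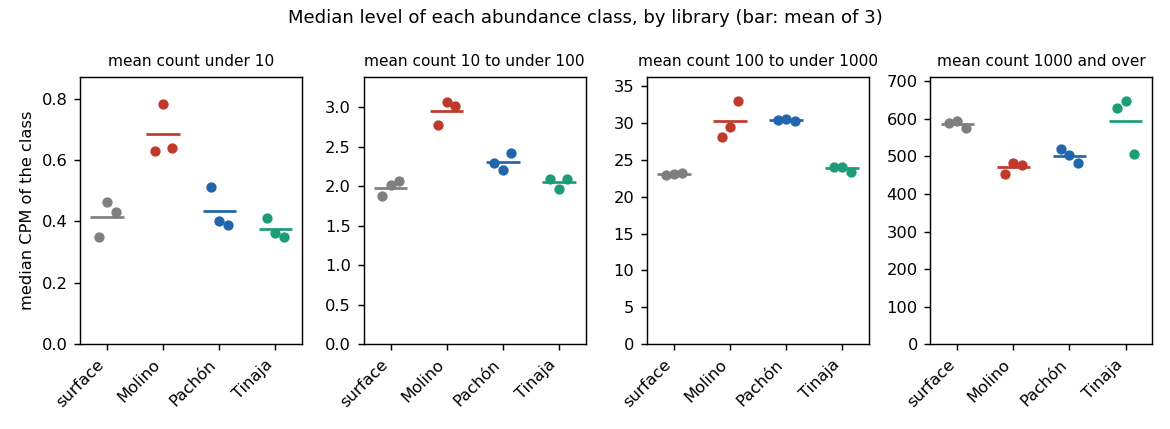
Points give the median TMM-scaled CPM of the miRNAs of each abundance class in each of the 12 libraries, and bars give the mean of the 3 libraries of a morph. Below 100 counts all Molino libraries lie above the other 9 libraries (0.631 to 0.784 against 0.349 to 0.511 CPM in the scarcest class), and in the most abundant class they lie below the surface libraries.

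Among miRNAs averaging 1000 counts or more, the largest called changes were increases. miR-205 was at 558, 599, and 476 CPM in the Molino libraries and at 54.2, 63.6, and 59.9 CPM in the surface libraries. miR-198 was at 256, 263, and 234 CPM in Molino and at 29.2, 28.0, and 35.4 CPM in surface. All Molino libraries were far above all surface libraries for both, with log2 fold changes of 3.20 (SE 0.11, adjusted p = 3.78e-13) for miR-205 and 3.02 (SE 0.10, adjusted p = 5.24e-13) for miR-198. miR-88 was at 216, 246, and 228 CPM in Molino and at 28.3, 27.5, and 55.1 CPM in surface. Surface replicate 3 was well above the other two and still far below Molino, and the log2 fold change was 2.65 (SE 0.21, adjusted p = 2.55e-08). The other cave morphs differed in these miRNAs: miR-198 and miR-88 were also called higher in Pachón and Tinaja, whereas miR-205 was not called in Pachón (log2 fold change −0.06) and was called lower in Tinaja (−2.61).

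Decreases in this class were smaller. miR-89 was at 129, 119, and 121 CPM in Molino and at 344, 336, and 372 CPM in surface, a log2 fold change of −1.51 (SE 0.08, adjusted p = 6.6e-11). miR-194 was at 231, 253, and 249.7 CPM in Molino and at 647, 652, and 699 CPM in surface, a log2 fold change of −1.44 (SE 0.09, adjusted p = 9.8e-10). Neither overlapped between Molino and surface. Both were also lower than surface in the other caves, with adjusted p under 0.05. miR-194 was called in Tinaja (log2 fold change −1.15) and was short of the 2-fold rule in Pachón (−0.89). miR-89 was short of it in both, at −0.98 in Pachón and −0.71 in Tinaja. The most abundant called miRNA, miR-186, ranked 40 by level and was named after its values were seen. It fell from a mean of 2144 CPM in surface to 1034 CPM in Molino, a log2 fold change of −1.05 that lies just past the 2-fold rule. In Pachón and Tinaja it was also lower than in surface, by the same test, but short of the 2-fold rule. The log2 fold changes were −0.51 (adjusted p = 5.88e-06) in Pachón and −0.52 (adjusted p = 4.54e-06) in Tinaja. Molino was lower than both of them by the same test, again short of the 2-fold rule. The log2 fold changes were −0.54 against Pachón (adjusted p = 2.03e-06) and −0.53 against Tinaja (adjusted p = 2.11e-06). The call of miR-186 in Molino was lost with loess offsets, when 10 counts were required of each library, and with a 2-fold change as the null hypothesis.

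A part of the calls was close to presence and absence. Between the morphs, 39 miRNAs had more than 3 counts in every Molino library and at most 3 in each surface library, and 18 showed the reverse. With 0 counts in all 3 libraries of the other morph, these numbers were 11 and 10. Among the called miRNAs, 44 of those higher had all surface libraries at or under 3 counts, 27 of those lower had all Molino libraries there, and at 3 called miRNAs both morphs were there. The other 164 were over 3 counts in both morphs in at least 1 library, 115 of them higher and 49 lower. Of these, 18 were at least 8-fold higher and 2 at least 8-fold lower. Over all called miRNAs the median fitted log2 fold change was 2.22 for those higher and −2.15 for those lower. The 3 at or under 3 counts in both morphs were then left out. Those there in 1 morph were set at the limit that 3 counts per library allow. The median was then 1.72 over 159 higher and −1.52 over 76 lower miRNAs. In a Molino library 3 counts stood for 0.378 to 0.392 CPM, and in a surface library for 0.351 to 0.515 CPM. These limits and the counting intervals below cover counting error only. The list of miRNAs was called from the reads of all libraries combined. A miRNA counted almost only in 1 morph thus entered the list through that morph. The adjusted p-values of such miRNAs describe them and are no separate support.

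miR-382 and miR-329 were counted in Molino and were at 0 in all surface libraries. miR-382 had 71, 48, and 53 counts in Molino, at least 16.6-fold above the level that 3 counts per library give in surface (adjusted p = 3.96e-08). miR-329 had 57, 55, and 40 counts, at least 14.7-fold above it (adjusted p = 7.27e-08). Both were also counted in every library of the other cave morphs, miR-382 at 14 to 40 counts and miR-329 at 54 to 94, and were called higher there. miR-511 showed the reverse: it was at 0 in all 9 cavefish libraries, Molino included, and had 66, 44, and 33 counts in the surface libraries, at least 17.5-fold above the Molino limit (adjusted p = 3.18e-06). All cave morphs thus differed from surface in the same direction at these miRNAs. At miR-382 Molino was in addition called higher than both other caves (larger adjusted p = 0.00022).

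Looking up the other cave morphs divided the Molino calls. For comparison, 203 miRNAs (29.7%) were called in Pachón and 196 (28.7%) in Tinaja against the same 3 surface libraries, so the 3 comparisons are not independent. The direct comparison of Molino with Pachón called 270 miRNAs (39.5%) and that with Tinaja called 292 (42.8%). Of the 238 miRNAs called in Molino, 26 were called higher and 17 lower in all cave morphs. A further 25 higher and 5 lower were shared with Pachón alone, and 15 higher and 6 lower with Tinaja alone. In neither other cave morph was a call made for 57 of the higher and 34 of the lower miRNAs, and 53 were called in the opposite direction in at least 1 of them. A missing call can be due to the adjusted p or to the 2-fold rule alone. The adjusted p was passed in neither other cave morph for 46 of the 57 and 18 of the 34. The rest passed it in at least 1 of them and missed only the 2-fold rule there.

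A missing call in another morph does not show a difference from it, so the direct comparisons were required too. Of the 57 higher miRNAs called in Molino alone, 38 were also called higher against both Pachón and Tinaja, 15 against only 1 of them, and 4 against neither. Of the 34 lower ones, 24 passed both, 5 passed 1, and 5 passed neither. The 38 and 24 miRNAs that passed both are called Molino-only here. The name rests on calls and does not mean that levels in the other caves equalled those in surface. All 3 Molino libraries lay above the other 9 libraries at 35 of the 38, and below them at 22 of the 24. Over all 683 miRNAs, they lay above the other 9 at 137 and below them at 90. The Molino-only miRNAs were picked by their differences from each of these morphs, so their separation was largely set by that choice. By abundance, from scarce to abundant class, the higher ones numbered 13, 19, 6, and 0 and the lower ones 7, 9, 7, and 1. Together the 38 took 0.098% to 0.107% of the counts in Molino and 0.011% to 0.0123% in surface. Under every scaling tried 24 and 21 remained Molino-only, and in all fits leaving out 1 of the 12 libraries 28 and 17 did.

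Several Molino-only miRNAs were nearly confined to the Molino libraries. miR-276 had 527, 465, and 507 counts in Molino, 0 in every surface library, and at most 2 in any Pachón or Tinaja library. Its level was at least 145-fold above the limit of 3 counts per library in surface (adjusted p = 3.54e-11). miR-314 had 180, 231, and 192 counts in Molino and a single count among the other 9 libraries, at least 58.3-fold above the surface limit (adjusted p = 3.58e-09). miR-396 had 119, 107, and 89 counts in Molino, 2 in a single surface library, and 0 in the other 8. Per depth it was 140-fold higher than in surface, with a 95% counting interval of 38.5 to 1164 (adjusted p = 1.92e-07). miR-243 had 784, 827, and 739 counts in Molino and 0, 1, and 1 in surface, a ratio of 1047 (interval 290 to 8653, adjusted p = 1.14e-13), and no library of Pachón or Tinaja had more than 4.

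The Molino-only increase of miR-203 started from a clear level in every morph. miR-203 was at 315, 348, and 339 CPM in Molino and at 4.91, 6.34, and 5.67 CPM in surface. The other cave morphs were not called against surface, with 4.75 to 5.96 CPM in Pachón and 5.47 to 6.33 CPM in Tinaja. The Molino libraries thus stood alone, and the log2 fold change against surface, 5.90 (SE 0.12, adjusted p = 7.03e-16), was 59.6-fold and the one with the smallest adjusted p of all miRNAs. Among scarce miRNAs, miR-178 had 14, 20, and 17 counts and miR-677 had 13, 14, and 9 counts in Molino, and both were at 0 in all other 9 libraries. Against the surface limit these were at least 4.93-fold (adjusted p = 0.00013) and at least 3.48-fold (adjusted p = 0.00033) higher. Both could enter the list of miRNAs only through their Molino reads, so these p-values describe them and are no separate support.

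Molino-only decreases included miRNAs without a count in Molino. miR-301 was at 0 in all Molino libraries and had 82, 80, and 53 counts in surface, 108 to 181 in Pachón, and 54 to 99 in Tinaja. It was at least 26.9-fold lower in Molino than in surface (adjusted p = 1.08e-08). miR-353 had 0 counts in Molino and 21, 27, and 28 in surface, at least 9.91-fold lower (adjusted p = 1.73e-06). miR-406 had 0 in Molino and 29, 21, and 18 in surface, at least 8.42-fold lower (adjusted p = 2.15e-07). Both were counted in every library of the other morphs, at 40 to 101 for miR-353 and 21 to 54 for miR-406 in Pachón and Tinaja. miR-353 was no longer Molino-only without surface replicate 3, and miR-301 and miR-353 were not without the fold rule.

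A single read was found in Molino for miR-261 and miR-524. miR-261 had 0, 1, and 0 counts in Molino and 196, 145, and 147 in surface, and 111 to 602 in the other cave morphs; without the fold rule it was not Molino-only. The ratio of surface to Molino per depth was 547, with a 95% counting interval of 97.8 to 21669 (adjusted p = 7.03e-13). miR-524 had 0, 0, and 1 counts in Molino and 12, 9, and 14 in surface, a ratio of 39.3 (interval 6.60 to 1595, adjusted p = 0.000555). Of the scarce miRNAs, miR-586 had 10, 7, and 3 counts and miR-663 had 10, 3, and 5 counts in surface, and both were at 0 in Molino, at least 2.40-fold and 2.16-fold lower (adjusted p = 0.000304 and 0.000286). Against Pachón and Tinaja the limits were only 1.63-fold and 1.70-fold for miR-586, and 1.15-fold and 1.25-fold for miR-663. The 2-fold rule against these caves was thus met by fitted values only. With upper-quartile scaling miR-663 was not Molino-only.

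Among abundant miRNAs only miR-60 was Molino-only. It was at 201, 205, and 182 CPM in Molino and at 502, 482, and 489.8 CPM in surface. The Pachón libraries, at 413 to 502 CPM, overlapped with surface, and the Tinaja libraries were higher still, at 718 to 829 CPM, so that Molino was the lowest of all. The log2 fold change against surface was −1.33 (SE 0.09, adjusted p = 1.74e-09). Without the fold rule it was not Molino-only, since calls against surface were then made in another cave morph.

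Presence and absence were also counted without a model. More than 3 counts in every Molino library and at most 3 in each of the other 9 were found for 9 miRNAs, whereas surface had 1 such miRNA, Pachón 7, and Tinaja 3. At most 3 counts in each Molino library and more than 3 in each of the other 9 were found for 13 miRNAs, with 8 of these at 0 throughout Molino. With each other morph in that place, the numbers were 10 in surface, 1 in Pachón, and 7 in Tinaja. The cut was not adjusted for depth: 3 counts stood for 0.201 to 0.291 CPM in Pachón and 0.218 to 0.349 CPM in Tinaja. In Molino they stood for 0.378 to 0.392 CPM and in surface for 0.351 to 0.515 CPM. The numbers of the morphs are thus not directly comparable. Reads of all morphs were counted on precursors from a single genome, and sequence differences between the morphs were not analysed here.

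**Figure D4:**
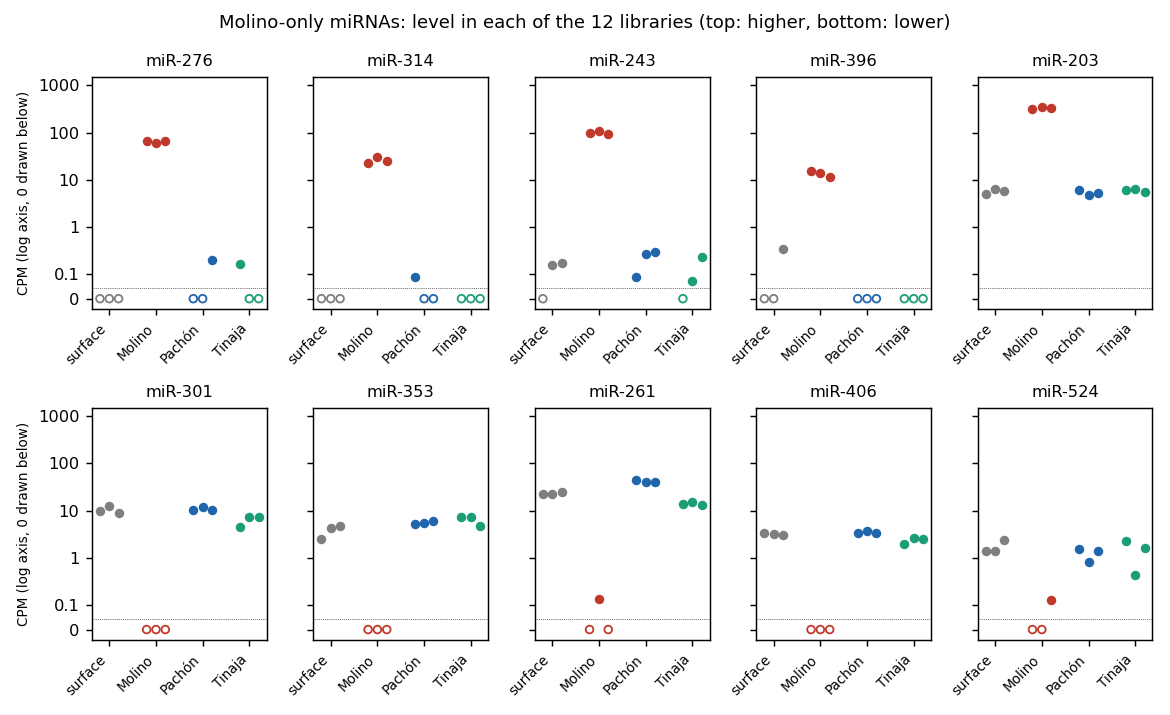
Points give the CPM of each of the 12 libraries, on a log axis with 0 drawn below the dotted line as open circles, for the 5 higher (top) and 5 lower (bottom) Molino-only miRNAs averaging 10 counts or more with the largest difference from every other morph. The 3 Molino libraries stand apart from the other 9 in all panels: miR-203 is at 315 to 348 CPM in Molino, and miR-301, miR-353, and miR-406 are at 0.

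Molino and another cave morph were changed in opposite directions at 53 miRNAs, 38 of them higher and 15 lower in Molino. At 16 the change was opposite to both Pachón and Tinaja, 13 higher and 3 lower in Molino. miR-239 had 1691, 1598, and 1395 counts in Molino and 20, 16, and 20 in surface, a log2 fold change of 6.21 (SE 0.17, adjusted p = 4.49e-14). It had 2, 6, and 4 counts in Pachón and 0, 0, and 1 in Tinaja, and was called lower in both. Surface libraries thus lay between Molino and the other cave morphs, without overlap. miR-215 showed the opposite order: it was at 0 in Molino, had 70, 48, and 45 counts in surface, 1982, 2400, and 1815 in Pachón, and 1380, 1430, and 877 in Tinaja. It was at least 20.2-fold lower in Molino than in surface (adjusted p = 6.6e-11), and its log2 fold change against surface was 4.43 in Pachón and 3.77 in Tinaja.

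miR-251 and miR-313 followed the order of miR-239. miR-251 was at 111, 122, and 111 CPM in Molino and at 31.3, 35.7, and 33.0 CPM in surface, a log2 fold change of 1.79 (SE 0.10, adjusted p = 2.31e-10). It was at 1.62 to 2.43 CPM in Pachón and at 1.40 to 1.73 CPM in Tinaja. miR-313 was at 17.3, 23.7, and 19.3 CPM in Molino and at 6.55, 5.88, and 6.87 CPM in surface, a log2 fold change of 1.64 (SE 0.17, adjusted p = 6.98e-07), with 1.11 to 1.87 CPM in Pachón and 1.53 to 1.65 CPM in Tinaja. Molino libraries were the highest and those of the other caves the lowest for both. Named after their values were seen, miR-412 and miR-497 were at 0 in all 6 Pachón and Tinaja libraries, and had 83, 93, and 92 and 61, 38, and 37 counts in Molino against 32, 31, and 16 and 23, 15, and 13 in surface. The call of miR-497 in Molino was lost in 4 settings, loess offsets and the fit without Molino replicate 1 among them.

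**Figure D5:**
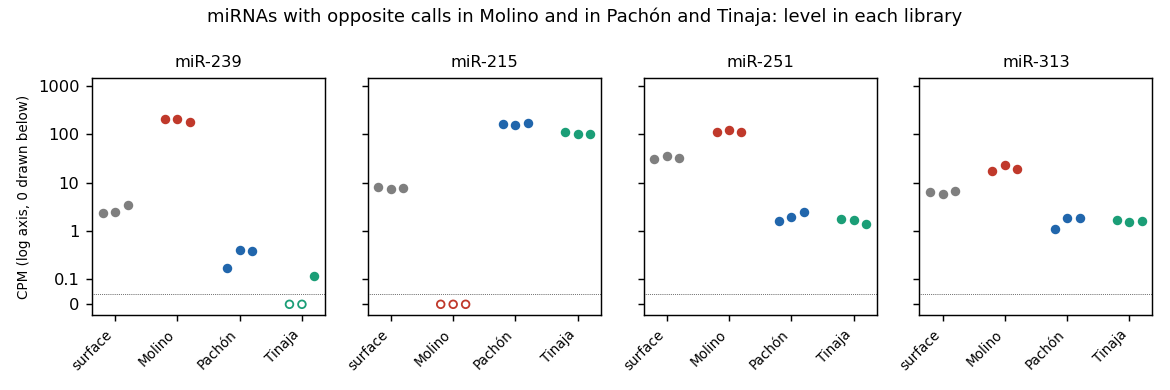
Points give the CPM of each library, on a log axis with 0 drawn below the dotted line as open circles, for the 4 miRNAs with the smallest adjusted p in Molino among the 16 changed in opposite directions in Molino and in both other cave morphs. Surface lies between Molino and the other caves in each panel; miR-215 is at 0 in Molino, and the other 3 miRNAs are highest there.

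Decreases shared with another cave morph could still differ in size. miR-226 was at 13.0, 10.1, and 14.9 CPM in Molino and at 212, 195, and 196 CPM in surface, a log2 fold change of −3.99 (SE 0.12, adjusted p = 8.5e-14). It was at 67.5 to 68.7 CPM in Pachón and at 2.80 to 3.34 CPM in Tinaja, and Molino differed from both in the direct tests (larger adjusted p = 3.41e-09). The Molino libraries lay between those of Pachón and Tinaja, and all were below surface. miR-311 was at 0 in Molino and had 72, 56, and 41 counts in surface, at least 20.9-fold lower (adjusted p = 2.53e-08). It was not Molino-only, since Tinaja, with 52, 63, and 21 counts, was also called lower than surface, while Pachón, with 107, 116, and 76 counts, was not called.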

How the data were processed

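Small RNA from embryos at 24 hpf was sequenced by the authors in 12 libraries, 3 for each of 4 morphs. They trimmed adapters, removed reads of other noncoding RNAs, called miRNAs with miRDeep2 on the *A. mexicanus* 2.0 genome from all libraries combined, and counted reads on the precursors. Their filters on called miRNAs included a minimum number of mature reads, from which miRNAs with a seed known in zebrafish were exempt. The submitters' processing notes name cutadapt 2.5 and bcl2fastq 2.20. The deposited values are raw counts per mature miRNA and library, without normalization. No column was left unused (0). Counts on shared precursors can be affected by reads that match several miRNAs and by sequence differences between morphs, and neither was tested. Columns and labels gave morphs and replicate numbers.

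Counts were tested in R 4.3.3 with edgeR 4.0.16 (TMM factors, glmQLFTest). A single model held the 12 libraries, each morph having its own mean, and no miRNA was filtered out. Benjamini-Hochberg adjustment ran over 683 miRNAs, and calls required an adjusted p under 0.05 together with a 2-fold or larger change. Levels are CPM with TMM-adjusted library sizes. Against a morph at 0 in all its libraries, limits were computed with 3 counts per library; against a morph with 1 to 3 counts in all, the ratio of summed counts per depth is given with its exact 95% counting interval, which is another quantity than such a limit. An exact permutation test of 3 against 3 libraries cannot give a two-sided p under 0.1. Molino-only calls needed calls against surface, Pachón, and Tinaja and none in the other caves against surface. The script was tested on simulated data.

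Members and lists were chosen with earlier results of these data known. Named miRNAs were those with the largest changes in each abundance class (3 per direction, and 2 in the class under 10 counts), the 10 most abundant, the 5 largest Molino-only changes per direction, the 4 most significant opposite calls, and the 2 most significant calls per direction. Alternatives were library sizes, RLE and upper-quartile factors, DESeq2 1.42.0, loess offsets (added after seeing the data), the 6 compared libraries alone, filters on counts, no fold rule, glmTreat, the likelihood ratio test, a prior count of 2, thinning, the replicate block, and leaving out each library.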

Additional observations from a re-analysis of the deposited data

Results flagged for a closer look

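Results are listed here because the change in Molino differed from that in another cave morph by a direct test in the same edgeR fit. The p-values are the larger of the 2 adjusted p-values from edgeR's quasi-likelihood tests of Molino against Pachón and against Tinaja. The 38 higher and 24 lower Molino-only miRNAs passed these tests by definition. Some of those named below were picked for large differences in these contrasts, so their p-values describe them and are no separate support. The 53 miRNAs called in opposite directions in Molino and in another cave morph are listed as well, on calls against surface alone. Single libraries were not tested for outliers, since groups of 3 are too small.

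Among miRNAs higher in Molino, the value was 8.32e-12 for miR-276, 7.15e-10 for miR-314, 2.34e-14 for miR-243, 2.17e-08 for miR-396, and 4.29e-16 for miR-203. It was 3.09e-05 for miR-178 and 8.13e-05 for miR-677, both at 0 outside Molino and listed through Molino reads only. It was 1.87e-13 for miR-205 and 0.00022 for miR-382, which was higher in all cave morphs.

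Among miRNAs lower in Molino, it was 4.15e-08 for miR-301, 2.55e-07 for miR-311, 1.5e-07 for miR-353, 3.74e-07 for miR-406, 4.57e-12 for miR-261, and 0.00129 for miR-524. It was 0.000787 for miR-586 and 0.00169 for miR-663, both scarce. It was 2.39e-09 for the abundant miR-60. For miR-226, which in Molino was lower than in surface and Pachón but higher than in Tinaja, it was 3.41e-09, from the test against Tinaja.

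Among miRNAs with opposite calls, it was 1.38e-15 for miR-239, 3.7e-15 for miR-215, 1.38e-15 for miR-251, and 1.25e-10 for miR-313.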

How the results depend on the processing

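The 29 called miRNAs named by rule kept their call and direction in every setting that tested them. Of those named after their values were seen, miR-412 did too, miR-186 lost its call in 3 of 26 settings, and miR-497 in 4 of 26. The 29 were picked for large changes or small adjusted p-values in these data, so their stability was largely set by that choice. Of all 161 higher and 77 lower calls, 128 and 63 stayed in every fit leaving out a Molino or surface library. The count of calls was 238 with TMM and 225 with libraries thinned to the shallowest. With at least 10 counts in every library compared, 82 were called (62 higher, 20 lower), 10 and 5 were Molino-only, and 6 were opposite; this filter also removes miRNAs absent in a single morph. Without the fold rule, 378 were called, 153 of them lower, and 122 were opposite. With glmTreat, 156 were called, 47 of them lower, and 20 were opposite. Upper-quartile factors gave 147 lower calls. With 0 counts instead of at most 3, one-sided presence fell to 11 in Molino and 10 in surface. The replicate block gave 232 calls (157 higher, 75 lower). Deviations of Molino and surface libraries with the same number correlated at −0.02, −0.06, and −0.10, and those with different numbers at −0.07 to 0.13. With 3 libraries a morph, these values cannot decide whether the numbers pair the libraries. Leaving out a library gave 220 to 240 calls, 147 to 163 higher and 71 to 78 lower, 36 to 43 and 20 to 27 Molino-only, 41 to 54 opposite, and 41 to 52 and 19 to 22 one-sided. Among the named miRNAs, sign changes were found only among the uncalled abundant ones. The log2 fold change of miR-2 was 0.033 with TMM, −0.029 with library sizes, −0.048 with RLE and with DESeq2, −0.52 with upper-quartile factors, −0.029 with the 6 libraries alone, −0.024 thinned, and −0.076 to 0.17 when a library was left out (lowest without Molino replicate 2). That of miR-6 was −0.019 with RLE and with DESeq2, −0.49 with upper-quartile factors, and −0.00309 with the 6 libraries alone. Upper-quartile factors gave −0.31 for miR-1 and −0.21 for miR-4. miR-10 was 0.045 with at least 10 counts and 0.21 with loess offsets, which gave 0.11 for miR-3 and 0.050 for miR-8. The cause was not tested.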
